A study of Homo sapiens with 90 samples.

Results

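The genes described here are 10 hypoxia and glycolysis genes, chosen by name: SLC2A1, HK2, PFKFB3, PFKFB4, PGK1, LDHA, VEGFA, CA9, ADM and BNIP3. A gene was taken as measured where a probe set, a group of oligonucleotides on the array that reads 1 transcript, was annotated to that symbol and to no other. This found 21 probe sets for 9 of the 10 genes, of 54613 probe sets tested and 19774 genes in all. No probe set carried the symbol CA9 in the annotation used, so CA9, a carbonic anhydrase at the cell surface, was not analysed here. Where a gene had several probe sets, the one with the highest mean over all 90 columns stood for it, and the others are given where they differ.

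A673 is a human cell line from a Ewing sarcoma, a tumour of bone and soft tissue. Cells were plated at 26000 per well and exposed for 24 h to fenbuconazole, imazalil or 2,4-D, each at 9 concentrations from 0.001 to 10 µM in 0.2% DMSO, or to DMSO alone. Fenbuconazole and imazalil are azole fungicides and 2,4-D is a herbicide. Each chemical had 27 treated arrays, 3 at each concentration, with replicate numbers 1, 2 and 3, and 3 columns of DMSO. The arrays were normalized separately for each chemical, so a level is read within a chemical's 30 columns (a set) and not across sets. All cells were of 1 line in culture, and no group was labelled as low in oxygen. In such bulk samples, fewer cells that express a gene and less RNA per cell cannot be told apart.

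Cells answer low oxygen through HIF1, a transcription factor whose alpha subunit is hydroxylated and degraded while oxygen is present and builds up when oxygen falls. Its targets raise glucose uptake (SLC2A1) and glycolysis (HK2, PFKFB3, PFKFB4, PGK1, LDHA), call in blood vessels (VEGFA, ADM) and remove mitochondria (BNIP3). Many tumour lines use these genes in normal oxygen too, and nutrient supply and cell density also act on several of them.

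The identity of the cells was checked against marker genes. Of 6 Ewing sarcoma markers, 5 had a probe set, and all 5 (STEAP1, NKX2-2, PRKCB, LIPI and CD99) lay above the 75th percentile of all probe sets in each set. None of 5 hepatocyte and none of 5 luminal breast markers did. The labels give the 3 DMSO arrays as controls common to all sets. Between imazalil and 2,4-D the DMSO columns behaved that way: after the mean of each set was subtracted, columns with the same number correlated at 0.87 to 0.88 across probe sets. Those of the fenbuconazole set, labelled with the same run numbers, correlated with them at only 0.11 to 0.20 and so did not behave that way. Whether these columns hold other arrays was not tested. For that reason the slope over the 27 treated arrays, which uses no DMSO column, is given for the genes of the fenbuconazole set as well. Differences from DMSO in imazalil and 2,4-D share their controls.

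The core of the site that HIF1 binds is read as ACGTG or GCGTG. The first form was searched in the 250 bases before the RefSeq starts of these genes (build GRCh38.p14) on both strands, as ACGTG or CACGT. It was present in 6 of 11 such windows, of 5 of 8 genes with an entry (HK2, PFKFB3, PGK1, LDHA and BNIP3), and in 18.5% of all 35116 windows in the table. The second form, as GCGTG or CACGC, was present in 8 of the 11 windows, of 7 genes, and in 32.2% of all windows. The 3 windows below are shown because PFKFB3 and BNIP3 gave the differences described further on and LDHA stayed level. The capitals mark ACGTG or CACGT. Where both lie on top of each other they make the palindrome CACGTG, also known as an E-box, which 6.34% of all windows held. All are written along the strand of the gene, and the last base is the base before the start.

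PFKFB3, chr10:6202682-6202931, plus strand: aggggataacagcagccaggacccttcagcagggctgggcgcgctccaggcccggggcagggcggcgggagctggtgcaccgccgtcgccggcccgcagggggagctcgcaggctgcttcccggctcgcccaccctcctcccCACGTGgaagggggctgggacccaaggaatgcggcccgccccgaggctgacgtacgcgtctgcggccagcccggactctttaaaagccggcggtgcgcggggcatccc
BNIP3, chr10:131981924-131982173, minus strand: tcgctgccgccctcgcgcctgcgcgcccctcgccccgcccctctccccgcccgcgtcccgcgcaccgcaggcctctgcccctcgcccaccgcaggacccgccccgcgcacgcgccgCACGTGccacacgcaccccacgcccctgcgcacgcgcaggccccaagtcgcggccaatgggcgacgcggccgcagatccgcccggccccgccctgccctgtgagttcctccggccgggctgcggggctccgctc
LDHA, chr11:18394313-18394562, plus strand: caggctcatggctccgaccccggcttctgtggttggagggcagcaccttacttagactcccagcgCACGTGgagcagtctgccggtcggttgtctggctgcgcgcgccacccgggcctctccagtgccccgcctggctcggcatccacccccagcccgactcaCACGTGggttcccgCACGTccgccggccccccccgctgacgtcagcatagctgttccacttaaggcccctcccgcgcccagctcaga

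In the PFKFB3 window the palindrome began 108 bases before the start. This is the inner of 2 PFKFB3 starts in the table, within the span of the gene (chr10:6144921-6326637). The window of the outer start held no ACGTG or CACGT. In BNIP3 the palindrome began 134 bases before the start, directly outside the gene (chr10:131967684-131981923). LDHA held the motif at 3 places, the nearest 73 bases before the start of the gene (chr11:18394563-18408425), while the window of a second LDHA start held none of these letters. The windows of PFKFB4 and ADM, the outer PFKFB3 window and the second LDHA window held GCGTG or CACGC alone, and that of SLC2A1 held neither form. A match of letters is not a site that was measured, and binding was not assayed.

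None of the 9 measured genes could be told from DMSO beyond the spread between arrays. No member passed at any concentration of fenbuconazole, imazalil or 2,4-D against DMSO (limma, Benjamini-Hochberg adjusted p under 0.05 over 54613 probe sets). Of all probe sets, 0.00183% passed at 1 or more concentrations of fenbuconazole, 0% of imazalil and 0% of 2,4-D. At an unadjusted p under 0.05, 8 member values (21 probe sets at 9 concentrations each) stood out in fenbuconazole, 14 in imazalil and 3 in 2,4-D. Over all probe sets this share ran from 4.63% to 8.96% by concentration in fenbuconazole, from 3.85% to 5.26% in imazalil and from 3.38% to 5.63% in 2,4-D. The F test over all 9 concentrations called 0% of probe sets in the fenbuconazole set, 0% in the imazalil set and 0% in the 2,4-D set, and no member. At an unadjusted p under 0.05 this F test held 0, 2 and 0 of the 21 member probe sets, beside 4.73%, 3.38% and 3.77% of all.

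The precision behind this was moderate. For the 9 chosen probe sets, the log2 differences from DMSO ran from -0.30 to 0.24 in fenbuconazole, from -0.22 to 0.38 in imazalil and from -0.20 to 0.21 in 2,4-D. The outermost ends of their 95% intervals were -0.56 and 0.46 in fenbuconazole, -0.47 and 0.61 in imazalil, and -0.49 and 0.48 in 2,4-D. Each interval stands for 3 arrays against 3.

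**Figure D1:**
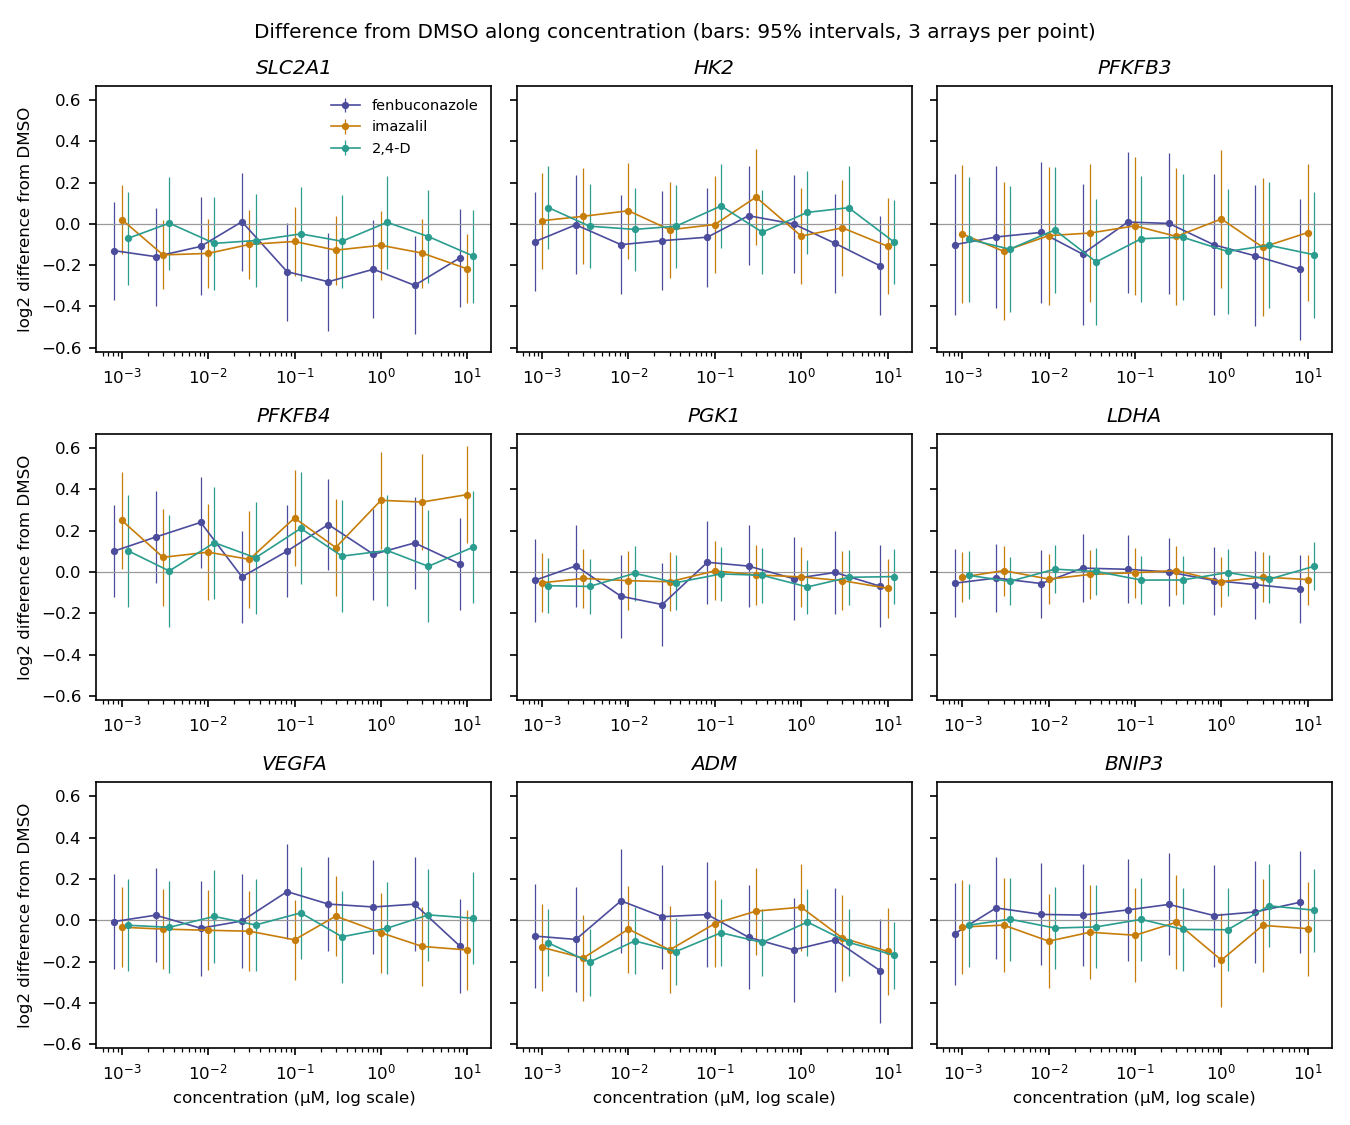
Log2 difference from DMSO (y) of the 9 measured genes at each concentration in µM on a log axis (x), with 95% intervals from limma and 3 arrays per point. Points of the chemicals are shifted sideways for sight. No point passed after adjustment, and PFKFB4 in imazalil reached the highest value, 0.38 at 10 µM.

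Among the genes of glucose uptake and the upper steps of glycolysis, PFKFB4 in imazalil had the highest difference of the chosen probe sets. PFKFB4 and PFKFB3 make and break fructose 2,6-bisphosphate, the activator of phosphofructokinase. In DMSO of the imazalil set the 3 arrays of PFKFB4 read 4.58, 4.62 and 4.59 on the log2 scale, and at 10 µM they read 4.85, 5.17 and 4.89. The 10 µM arrays all lay above the DMSO arrays. Here and below, the share of all probe sets that separate in this way, 3 arrays against 3, was not counted. Such separations are given as description only. PFKFB4 differed by 0.38 (SE 0.11) at 10 µM, 0.34 at 3 µM and 0.35 at 1 µM, with an adjusted p of 0.856 from limma at 10 µM. At 0.1 µM the difference was 0.26 and at 0.001 µM 0.25, against 0.06 at 0.03 µM, so the values did not climb steadily. Over the 27 treated arrays PFKFB4 had a slope of 0.06 (SE 0.02) per 10-fold of imazalil, adjusted p = 0.986. The second probe set of PFKFB4 differed by -0.09 (SE 0.11) at 10 µM, but its mean lay under the median of all probe sets in that set, so little can be read from it. In fenbuconazole the chosen PFKFB4 probe set differed from DMSO by 0.04 at 10 µM and in 2,4-D by 0.12.

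SLC2A1 encodes GLUT1, the basal glucose carrier. In imazalil its DMSO arrays read 5.75, 5.85 and 5.86, and those at 10 µM read 5.70, 5.51 and 5.60. Each 10 µM array lay below all DMSO arrays. The log2 difference of SLC2A1 was -0.22 (SE 0.08, adjusted p = 0.983 from limma). It was -0.30 without replicate 1, and smaller in size than -0.22 without replicate 2 or without replicate 3. The second SLC2A1 probe set differed by 0.32 at 10 µM of imazalil (SE 0.12, adjusted p = 0.963) (DMSO arrays of 2.72, 2.53 and 2.25, and 10 µM arrays of 2.77, 2.78 and 2.91). Its mean also lay under the median of all probe sets in that set, so the opposite signs of the SLC2A1 probe sets say little. In fenbuconazole the DMSO arrays of the chosen probe set read 5.57, 5.42 and 5.40 and the 10 µM arrays 5.24, 5.41 and 5.25. These groups overlapped. The lowest difference of any chosen probe set was that of SLC2A1 at 3 µM of fenbuconazole, -0.30 (SE 0.12), which did not pass. The slope of SLC2A1 over the treated arrays was -0.04 (SE 0.02) per 10-fold of fenbuconazole.

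HK2, which traps glucose in the cell as glucose 6-phosphate, read 6.84, 6.62 and 7.02 in DMSO of the fenbuconazole set and 6.75, 6.47 and 6.65 at 10 µM. Within each replicate number the 10 µM array of HK2 was the lower one, by a mean of -0.20 (SE 0.12, adjusted p = 0.766), and its slope over the treated arrays was -0.01 (SE 0.02) per 10-fold. PFKFB3 read 8.99, 8.58 and 9.07 in DMSO of that set and 8.89, 8.45 and 8.64 at 10 µM. The 10 µM array of PFKFB3 was again the lower one within each number. The same held at 0.001, 0.03, 1 and 3 µM but not at the others, so it was not confined to the highest concentrations. PFKFB3 had a mean difference of -0.22 (SE 0.17, limma adjusted p = 0.839) at 10 µM and a slope of -0.02 (SE 0.03) per 10-fold. The fit against DMSO held no term for the replicate number, so the SE of 0.17 takes in the spread between numbers.

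Of the lower steps, PGK1 makes the first ATP of glycolysis and LDHA turns pyruvate to lactate. Neither came near a call. At 10 µM PGK1 differed from DMSO by -0.07 in fenbuconazole, -0.08 in imazalil and -0.02 in 2,4-D. LDHA differed by -0.08, -0.04 and 0.03 in the same order, with SEs of 0.08, 0.06 and 0.06. In fenbuconazole LDHA read 12.15, 12.17 and 12.15 in DMSO and 12.05, 12.08 and 12.09 at 10 µM, groups that did not overlap. The adjusted p of that LDHA difference was 0.877 from limma, and the slope of LDHA was -0.01 (SE 0.01) per 10-fold.

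Of the secreted factors, ADM codes for adrenomedullin, a peptide that widens vessels. In 2,4-D its DMSO arrays read 7.71, 7.80 and 7.80 and its 10 µM arrays 7.69, 7.65 and 7.45. All 3 treated arrays of ADM lay below the DMSO arrays, by a mean of -0.17 (SE 0.08, adjusted p = 1.00), and the mean was -0.08 without replicate 3. In fenbuconazole the ADM difference was -0.24 (SE 0.12) and the slope over treated arrays -0.04 (SE 0.02) per 10-fold. VEGFA, the main growth factor of blood vessels, differed by -0.12 in fenbuconazole, -0.14 in imazalil and 0.01 in 2,4-D at 10 µM. BNIP3, a mitochondrial protein that marks mitochondria for removal, differed by 0.09, -0.04 and 0.05.

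As a group at 10 µM, 7 of the 9 genes were lower than DMSO in fenbuconazole with a median of -0.12, 8 in imazalil with a median of -0.08, and 5 in 2,4-D with a median of -0.02. The median over all probe sets lay within 0.01 of 0 in each case, and 49.9%, 51.3% and 47.2% of all probe sets were higher than DMSO. Such counts were not particular to 10 µM. At 0.001 µM of fenbuconazole, 0.03 µM of imazalil and 0.3 µM of 2,4-D, 8 of the 9 genes were lower. The other way, 7 were higher at 0.1 and at 0.3 µM of fenbuconazole and 5 at 0.3 µM of imazalil. At every other concentration of each chemical, more of the 9 genes were lower than higher. All contrasts of a set use the same DMSO columns, and imazalil and 2,4-D share theirs, so these counts are not separate readings. None of the members' differences from DMSO had passed. Along concentration, with DMSO set aside, no member passed (0, 2 and 0 of 21 at an unadjusted p under 0.05, against 4.3%, 4.92% and 3.67% of all probe sets), beside 0% of all probe sets in fenbuconazole, 0.00183% in imazalil and 0% in 2,4-D. The slopes of the 9 genes ran from -0.04 to 0.02 per 10-fold in fenbuconazole (PFKFB4 -0.01, PGK1 0.0049, VEGFA -0.0010 and BNIP3 0.02 among them), from -0.03 to 0.06 in imazalil and from -0.01 to 0.02 in 2,4-D.

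The 3 chemicals were compared with each other at matched concentrations after each set's DMSO mean had been taken off, in 27 contrasts of 1 joint fit. No member passed, beside 0.00549% of all probe sets between fenbuconazole and imazalil, 0% between fenbuconazole and 2,4-D and 0% between imazalil and 2,4-D. At an unadjusted p under 0.05, 7 of 567 member values stood out. Of all probe sets, from 3.51% to 7.44% did in the contrasts with fenbuconazole, and from 0.441% to 0.859% in those of imazalil minus 2,4-D. The joint fit treated the DMSO columns of imazalil and 2,4-D as separate arrays, though they behaved as shared controls. The SEs and intervals of imazalil minus 2,4-D are therefore likely too wide, and its p-values too high. The differences between chemicals of the 9 genes ran from -0.34 to 0.31, with 95% intervals that reached -0.67 and 0.65. The lowest was PFKFB4 at 10 µM, fenbuconazole minus imazalil, at -0.34 (SE 0.17). Intervals of this width do not show that the chemicals act alike.

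Several members differed between replicate numbers. The study's methods describe 3 biological replicates, made on separate batches of cells, but no label ties a replicate number to a batch, so the number is used here only as given. The 9 treated arrays of a number within a set are wells that may share a culture, and p-values between numbers measure the spread between these wells. The run numbers in the labels go through all of number 1, then number 2, then number 3, so run position and replicate number cannot be told apart. Each of these blocks of runs holds all 3 chemicals. A difference between numbers that recurs in the 3 sets is therefore not 3 independent findings. Within each block the run numbers start at DMSO and go on through 2,4-D, fenbuconazole and imazalil in that order. Each chemical goes from its highest to its lowest concentration there. The slopes along concentration, the differences from DMSO and the contrasts between chemicals therefore cannot be told apart from run position within a block. The F test between numbers over the 27 treated arrays, with concentration in the model, called 1 of the 21 member probe sets in fenbuconazole, 2 in imazalil and 2 in 2,4-D. Of all probe sets it called 0.797%, 1.85% and 2.88% in turn. At an unadjusted p under 0.05 it held 5, 7 and 10 of the 21 member probe sets, beside 12.1%, 16.4% and 18% of all.

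PFKFB3 passed in all 3 sets and was lowest in replicate number 2. In the fenbuconazole set the 9 treated arrays of number 1 ran from 8.83 through a median of 8.89 to 9.04, those of number 2 from 8.45 through 8.57 to 8.70, and those of number 3 from 8.64 through 8.92 to 9.09. Only the 10 µM array of number 3 reached into the range of number 2. In the imazalil set number 1 ran from 9.67 through 9.81 to 9.88, number 2 from 9.32 through 9.49 to 9.67, and number 3 from 9.71 through 9.77 to 10.01. Here all 9 arrays of number 2 lay below all 18 others, a separation in either direction that 0.187% of all probe sets showed, against 0.101% in the fenbuconazole and 0.194% in the 2,4-D set, where no member showed it. In the 2,4-D set number 1 of PFKFB3 ran from 9.72 through 9.80 to 9.92, number 2 from 9.42 through 9.55 to 9.68, and number 3 from 9.66 through 9.83 to 9.92, where again only the 10 µM array of number 3 reached into the range of number 2.

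The DMSO columns, which the fit did not use, were lowest in number 2 too. They read 8.99, 8.58 and 9.07 for PFKFB3 in the fenbuconazole set, 9.90, 9.41 and 9.94 in the imazalil set and 9.96, 9.45 and 10.09 in the 2,4-D set. The labels give these controls as common to all sets, and those of imazalil and 2,4-D behaved that way. The sets are therefore not 3 separate readings of DMSO. At matched concentrations, the array of number 2 had the lowest PFKFB3 of its 3 at 9 of 9 concentrations in fenbuconazole, 9 of 9 in imazalil and 8 of 9 in 2,4-D.

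**Figure D2:**
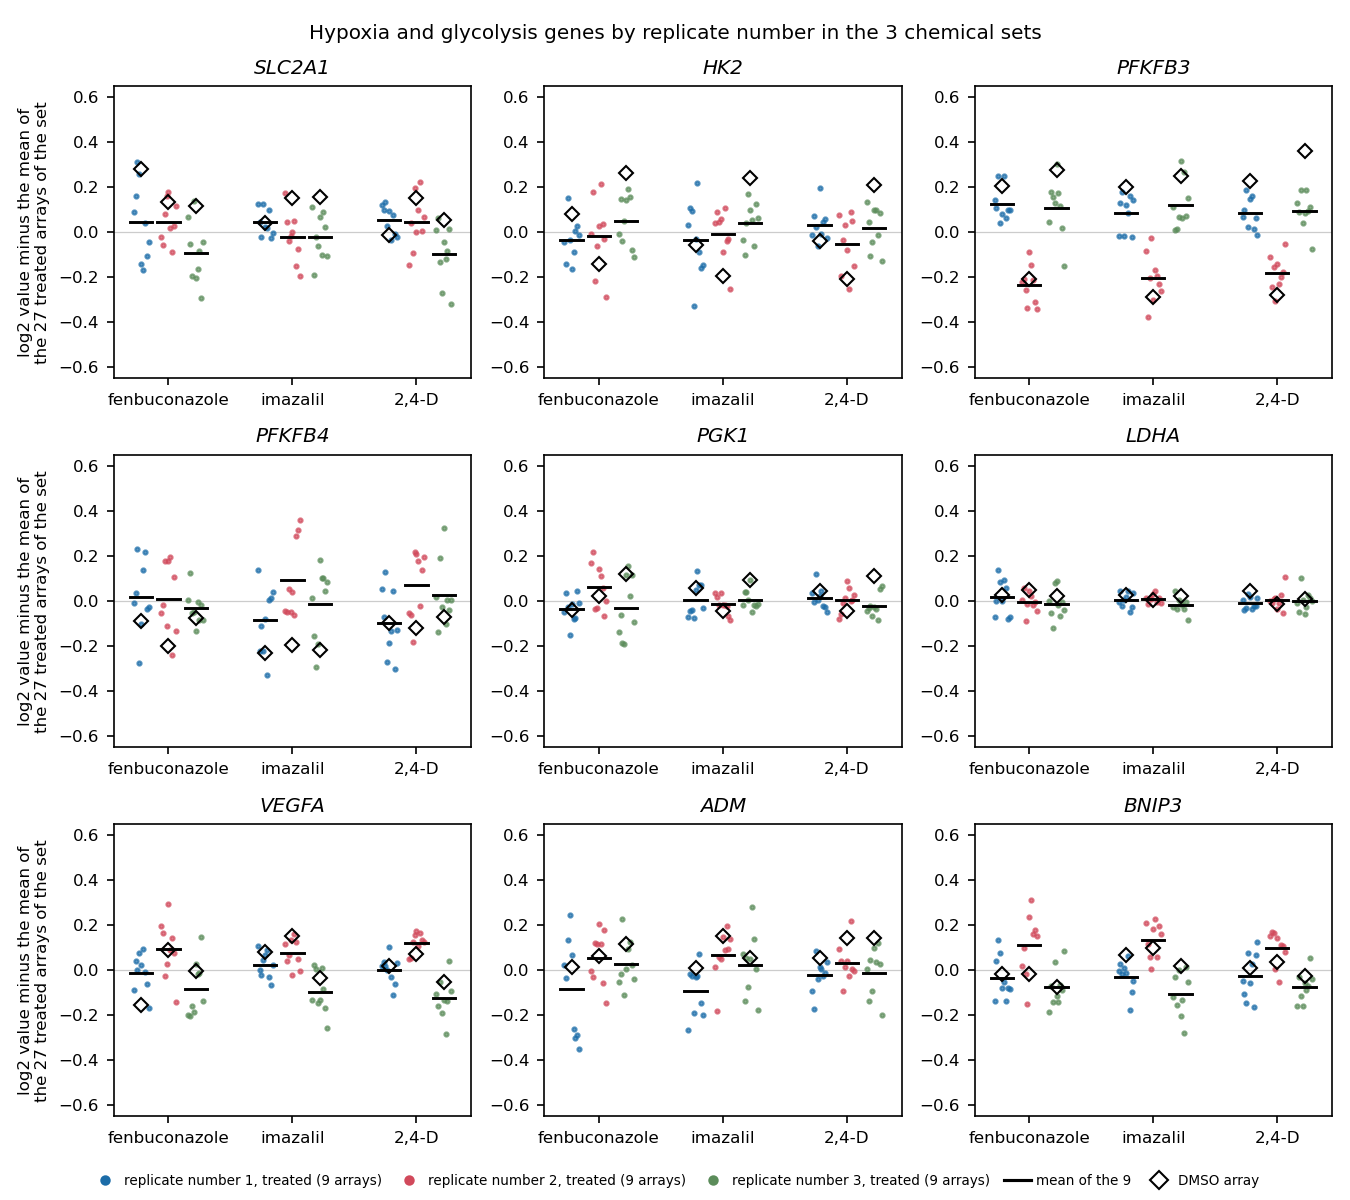
Log2 value of each array minus the mean of the 27 treated arrays of its set (y) for the 9 measured genes in the 3 sets (x), with colours for the replicate numbers, bars for the mean of 9 treated arrays and open diamonds for the DMSO arrays. PFKFB3 of number 2 sits low in each set, and VEGFA and BNIP3 of number 2 sit above those of number 3.

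In the model, PFKFB3 of number 2 was lower than that of number 1 by a log2 difference of -0.36 (SE 0.05, adjusted p = 0.000288) in fenbuconazole, -0.29 (SE 0.05, adjusted p = 0.00589) in imazalil and -0.26 (SE 0.04, adjusted p = 0.0012) in 2,4-D. Number 3 was higher than number 2 by 0.34, 0.32 and 0.28 in the same order, with adjusted p of 0.000415, 0.00155 and 0.000445 from limma. Between numbers 3 and 1 PFKFB3 differed by -0.02, 0.04 and 0.01, and none of these passed. For number 2 minus number 1, 0.943% of all probe sets passed in fenbuconazole, 1.31% in imazalil and 1.05% in 2,4-D. For 3 minus 2 the shares were 0.694%, 1.64% and 2.76%, and for 3 minus 1 they were 0%, 0.0183% and 0.425%. Only 1 probe set carried the symbol PFKFB3, and its name ends in s_at, which marks a probe set that can match more than 1 transcript.

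BNIP3 and VEGFA lay the other way round, higher in number 2 than in number 3. BNIP3 of the imazalil set ran from 8.77 through 8.93 to 9.01 in number 1, from 8.95 through 9.10 to 9.17 in number 2 and from 8.66 through 8.82 to 8.96 in number 3. The highest array of number 3 (8.96) just passed the lowest of number 2 (8.95). The difference of number 3 minus number 2 was -0.24 (SE 0.04, adjusted p = 0.00404) in imazalil and -0.17 (SE 0.05, adjusted p = 0.0469) in 2,4-D, both of which passed, and -0.19 (SE 0.06, adjusted p = 0.21) in fenbuconazole, which did not. The F test between numbers called BNIP3 in imazalil (adjusted p = 0.0100) but not in 2,4-D (adjusted p = 0.0828). The second BNIP3 probe set had differences of -0.16 in imazalil, which passed with an adjusted p of 0.0499, -0.16 in 2,4-D (adjusted p = 0.0647) and -0.21 in fenbuconazole (adjusted p = 0.0946). In fenbuconazole that BNIP3 probe set passed for number 2 minus number 1, at 0.23 (SE 0.06, adjusted p = 0.0458). The F test did not call that probe set in any set. Without replicate number 1, BNIP3 in 2,4-D no longer passed (-0.17, adjusted p = 0.0995), nor did it without the 10 µM arrays (adjusted p = 0.0573). In DMSO, BNIP3 of numbers 1, 2 and 3 read 9.01, 9.04 and 8.96 in the imazalil set and 9.09, 9.11 and 9.05 in the 2,4-D set.

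VEGFA of the 2,4-D set ran from 9.24 through 9.37 to 9.45 in number 1, from 9.40 through 9.48 to 9.53 in number 2 and from 9.07 through 9.22 to 9.39 in number 3. The 9 arrays of VEGFA in number 2 all lay above the 9 of number 3, a separation whose share over all probe sets was not counted. The difference of number 3 minus number 2 was -0.25 (SE 0.04, adjusted p = 0.00117) in 2,4-D and -0.17 (SE 0.04, adjusted p = 0.0323) in imazalil, and in fenbuconazole it was -0.18 (SE 0.06, adjusted p = 0.181), which did not pass. The F test between numbers called VEGFA in 2,4-D (adjusted p = 0.00379) but not in imazalil (adjusted p = 0.0591). VEGFA had 3 further probe sets with negative differences of 3 minus 2 in every set, from -0.20 to -0.03, of which 1 passed, in 2,4-D (-0.19, adjusted p = 0.0338). The F test called none of these further probe sets in any set. In imazalil VEGFA no longer passed without replicate number 1 (-0.17, adjusted p = 0.0991) or without the 10 µM arrays (-0.16, adjusted p = 0.0776). Whether these gaps differ from one set to another was not tested.

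**Figure D3:**
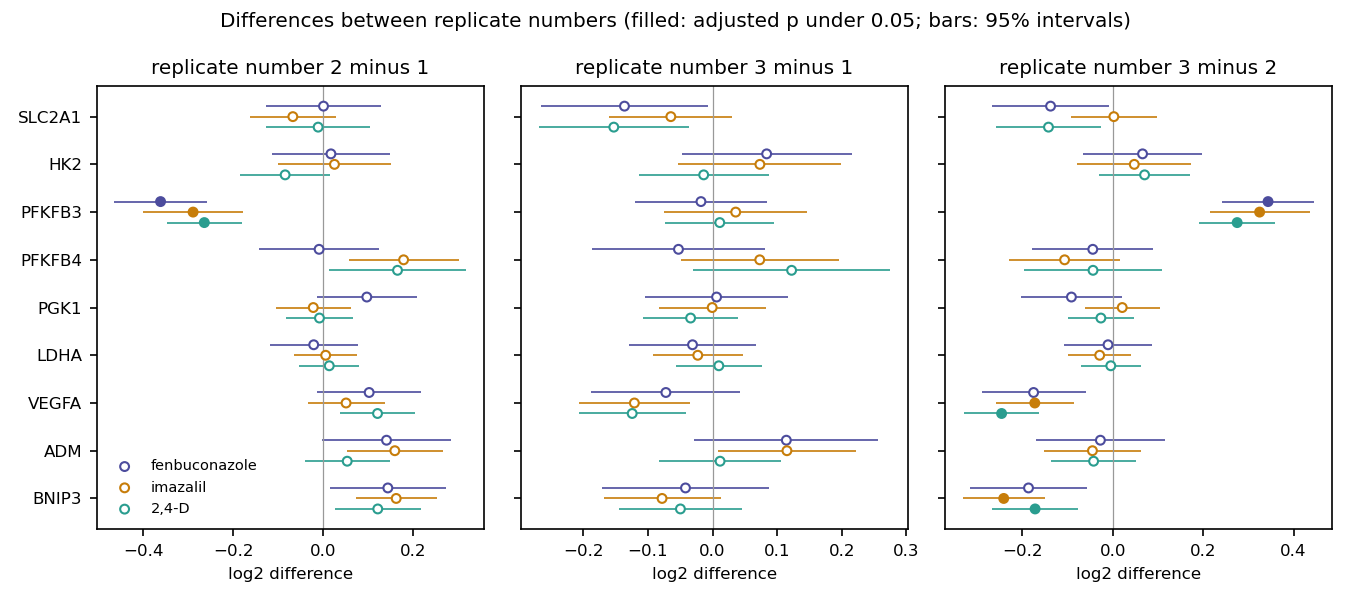
Log2 differences between replicate numbers (x) of the 9 measured genes (y) in the 3 sets, with 95% intervals and filled points where the adjusted p from limma was under 0.05. PFKFB3 of number 2 lies below both other numbers in all sets, while 3 minus 2 is negative for VEGFA and BNIP3.

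The other 6 genes did not pass between numbers in any set. LDHA kept its 3 means within 0.03 of each other in every set. The chosen HK2 probe set differed by at most 0.08 between numbers. The second HK2 probe set had means of 6.44, 6.28 and 6.40 in numbers 1, 2 and 3 of the 2,4-D set. It did not pass there either (F test adjusted p = 0.142). ADM was lowest in number 1 at 8 of 9 concentrations of imazalil, with a difference of 2 minus 1 of 0.16 in that set that did not pass. Over the 27 treated arrays, the replicate number carried 76.2%, 70.5% and 76.1% of the variance of PFKFB3 in the fenbuconazole, imazalil and 2,4-D sets, against medians over all probe sets of 7.41%, 9.11% and 9.31%. For VEGFA the shares were 31.1%, 51.8% and 71.2%, and for BNIP3 37.1%, 61.9% and 45.5%. For LDHA they were 4.07%, 16.3% and 2.31%. For the chosen PGK1 probe set they were 17.3%, 3.48% and 8.30%. The PGK1 probe set with the largest shares had 40.1%, 10.0% and 48.8%, and the F test did not call it in any set. Concentration carried less of the variance of PFKFB3 than the median over all probe sets in each set (28.8%, 27.1% and 27.8%). That comparison cannot show whether concentration acted on PFKFB3. The shares of replicate number, concentration and the rest make up the whole variance. The large share of the replicate number left little room for concentration to pass these medians.

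**Figure D4:**
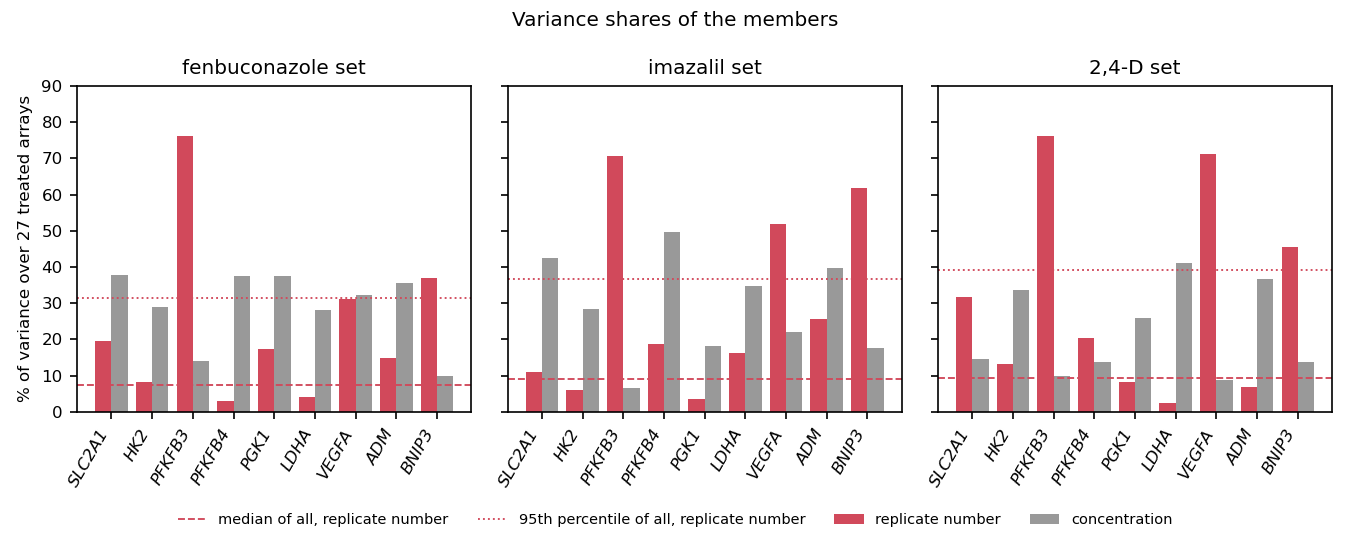
Percent of the variance over the 27 treated arrays of a set (y) that goes with the replicate number (red) and with concentration (grey) for the 9 measured genes (x), with the median and the 95th percentile of all probe sets for the replicate number. PFKFB3 stands at 70.5% to 76.2% in the 3 sets, and LDHA at 2.31% to 16.3%.

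The rest of the pathway was read from lists. Of 8 HIF subunits and regulators, all measured, none passed the F test between numbers in any set and none at any concentration. HIF1A itself differed by -0.07 to 0.02 between numbers, and at 10 µM by -0.03 in fenbuconazole, 0.06 in imazalil and 0.08 in 2,4-D. EPAS1, the alpha subunit of HIF2, differed at 10 µM by -0.05, 0.24 and -0.12, VHL, which marks the alpha subunits for degradation, by -0.12, -0.01 and -0.01, and EGLN3, an oxygen-sensing hydroxylase, by 0.06, 0.08 and 0.20, and none of these passed. Of 17 other glycolysis genes, 16 were measured and none passed between numbers or at any concentration.

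Among 14 other hypoxia targets, 13 were measured, and the F test between numbers called 1 in fenbuconazole, 1 in imazalil and 2 in 2,4-D. MXI1, which opposes MYC, was lower in number 3 than in number 2 by -0.27 in fenbuconazole (adjusted p = 0.02) and -0.25 in 2,4-D (adjusted p = 0.00186), with -0.17 in imazalil (adjusted p = 0.0559). NDRG1, a gene raised by stress and differentiation, was lower in number 2 than in number 1 by -0.30 in imazalil (adjusted p = 0.0151) and -0.24 in 2,4-D (adjusted p = 0.0174), with -0.19 in fenbuconazole (adjusted p = 0.28). ANGPTL4, a secreted inhibitor of lipoprotein lipase, was lower in number 2 than in number 1 by -0.30 in imazalil (adjusted p = 0.0341), with -0.38 in 2,4-D (adjusted p = 0.0562) and 0.10 in fenbuconazole (adjusted p = 0.76), and the F test did not call it in any set. No gene of this list passed at any concentration. Over the 9 members the median of 2 minus 1 was 0.02, 0.03 and 0.01 in the 3 sets, with 6, 6 and 5 genes higher in number 2. That of 3 minus 2 was -0.04, -0.03 and -0.04, with 7, 5 and 7 genes lower in number 3, and the medians over all probe sets lay within 0.01 of 0.

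One marker of another tissue moved with the numbers as well. GATA3, from the list of 5 luminal breast markers, was lower in number 2 than in number 1 by -0.40 in fenbuconazole (adjusted p = 0.0258) and -0.51 in imazalil (adjusted p = 0.00165), and by -0.41 in 2,4-D (adjusted p = 0.0697). It was higher in number 3 than in number 2 by 0.43 in imazalil (adjusted p = 0.00656) and 0.47 in 2,4-D (adjusted p = 0.0184). The F test called GATA3 in imazalil (adjusted p = 0.00185) and 2,4-D (adjusted p = 0.0256) and not in fenbuconazole (adjusted p = 0.0586). That test called none of the other 4 of that list and none of the 5 hepatocyte markers. The mean of the 5 luminal markers ran from 2.91 to 3.13 in number 2 of the fenbuconazole set, against 3.06 to 3.24 in number 1 and 2.91 to 3.43 in number 3. As a sign of RNA quality, the 3′ minus 5′ difference of the ACTB controls had medians of 0.48, 0.35 and 0.30 in numbers 1, 2 and 3 of the fenbuconazole set, 0.52, 0.46 and 0.44 in the imazalil set and 0.48, 0.48 and 0.52 in the 2,4-D set. The part of either in the differences of PFKFB3, VEGFA and BNIP3 was not tested.

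Across the 30 columns of a set, the members followed each other loosely. Over the 36 pairs of the 9 genes, the median Pearson r was 0.11 in fenbuconazole, 0.02 in imazalil and 0.08 in 2,4-D, as a description, since columns share their set's normalization and their replicate number. VEGFA and BNIP3 were the only pair above 0.3 in every set (0.43, 0.52 and 0.62). PFKFB3 ran against both, at -0.46, -0.71 and -0.53 with BNIP3 and at -0.34, -0.49 and -0.59 with VEGFA. Once the mean of each replicate number had been subtracted, PFKFB3 stood at 0.09, -0.22 and 0.05 with BNIP3 and at 0.31, 0.02 and 0.16 with VEGFA, and VEGFA with BNIP3 at 0.16, 0.03 and 0.19. Then 3 pairs were above 0.3 in every set: HK2 and PFKFB3 (0.63, 0.31 and 0.37), PFKFB3 and PGK1 (0.41, 0.33 and 0.37), and LDHA and VEGFA (0.46, 0.48 and 0.32).

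The mean z score of the 9 genes was set against all other genes over the 30 columns of each set. By the lowest r of the 3 sets, the genes most like it were COP1 (0.62, 0.56 and 0.63), SOX2 (0.66, 0.56 and 0.58), TPD52 (0.56, 0.59 and 0.56), KIF20B, RRM2B and DKK2, and the most opposite were PAPSS1 (-0.70, -0.58 and -0.58), AKIRIN1 and CNOT9. With the mean of each number subtracted, CYRIB (0.65, 0.60 and 0.64), KIF20B, FKBP3, DKK2, RTN4 and LTN1 led, and PAPSS1, GNA11 and INCENP ran most against the score. Single genes gave companions with higher r while the replicate numbers were left in, in comparisons chosen after the values had been seen. Those of PFKFB3 were PGF (0.90, 0.90 and 0.87), TMT1B, MT1X (0.84, 0.88 and 0.90), CMPK2, MT2A (0.82, 0.86 and 0.84) and MT1G, with COL1A2 (-0.84, -0.80 and -0.83) the most opposite. Those of VEGFA were PSAT1 (0.75, 0.70 and 0.73), ASNS (0.73, 0.69 and 0.83), TRIB3, CTH, DDIT4 (0.67, 0.82 and 0.79) and PIMREG. Those of BNIP3 were MTHFD1L (0.69, 0.80 and 0.71), CCNG1, NIBAN1, SLC38A1, GALNT1 and INSIG1, with TNFRSF12A the most opposite (-0.68, -0.75 and -0.64). With number means subtracted, those of PFKFB3 were RANBP6 (0.61, 0.64 and 0.66), NT5E (0.65, 0.59 and 0.66), RTN4, SNX4, RPL3 and DIP2B. Those of VEGFA were then NCKAP1 (0.59, 0.53 and 0.57), ARHGDIB (0.51, 0.54 and 0.56), TRUB1, U2AF2, ZFP69B and ZIC2, and those of BNIP3 were SF3B4 (0.48, 0.49 and 0.45), PRKD3 (0.44, 0.42 and 0.42), UBAP2L, COMMD2, SLC19A2 and NECAP1. These values were lower than those of the first companions, which were computed with the differences between replicate numbers left in.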

How the data were processed

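RNA was read on Affymetrix HT HG-U133+ PM arrays. The deposited values are log2 intensities per probe set that the authors made with RMA, using Partek, in a separate run for each chemical and its DMSO columns, 30 in all (versions are not given in the sources used here). The file held 54715 probe sets in 90 columns. After 102 manufacturer controls were left out, 40914 of 54613 probe sets had 1 gene symbol, 864 several and 12835 none. Genes were named only from probe sets with 1 symbol, and the 3 replicates limit the precision.

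Groups, concentrations and replicate numbers came from the labels. Contrasts were fitted with limma (version 3.58.1, under R 4.3.3) on the deposited values, without a block: 9 contrasts against DMSO and their F over 30 columns, a slope on log10 concentration over 27 treated arrays, replicate numbers with concentration as a term over the same 27, and chemicals compared in 1 fit of 90 columns. The Benjamini-Hochberg adjustment ran over all probe sets within a contrast, at 0.05. The fits were run on simulated data with independent noise for each array and planted shifts. This checks that shifts are read back. It cannot check p-values where arrays of a number share a culture or a block of runs. Named genes were all members, HIF1A, EPAS1, VHL and EGLN3, members of the lists past the threshold (up to 4 by size), and the 6 genes most and 3 least like the members' score. Companions of PFKFB3, VEGFA and BNIP3 were added after their values were seen. The members, lists and tests were chosen with earlier results of these data known. The study's methods give separate batches of cells for the replicates, and no label ties a number to a batch. Alternatives were a replicate block, other normalization, moderation, filter and sample choices. Promoter windows came from RefSeq. Python 3.11.15 served for the descriptive values (pandas 2.3.3) and for the plots (matplotlib 3.10.9).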

Additional observations from a re-analysis of the deposited data

Results flagged for a closer look

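Of 81 groups of 9 treated arrays (9 genes, 3 sets and 3 replicate numbers), 2 held an array far from the others by Dixon's test, which chance flags in about 1 of 20 groups. ADM at 0.003 µM of imazalil in replicate number 2 read 7.41, below the other 8, which lay between 7.61 and 7.79. LDHA at 10 µM of 2,4-D in replicate number 2 read 12.76, above the others, which lay between 12.60 and 12.68.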

How the results depend on the processing

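No member passed against DMSO, along concentration or between chemicals under any alternative run. With the replicate number as a block, 0 members passed in each of these comparisons, and over all probe sets the counts against DMSO went from 1 to 5 in fenbuconazole, from 0 to 2 in imazalil and from 0 to 1 in 2,4-D. Arrays were closest to one of their own number in 24, 28 and 30 of 30 cases, so arrays of a number shared part of their variation. Same-number correlations of deviations averaged 0.04, 0.07 and 0.08 over all probe sets, against -0.02, -0.03 and -0.04 between numbers. The main fits against DMSO, along concentration and between chemicals left this pairing out, and only the fits with a block took it in.

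The members called between replicate numbers (1, 2 and 2 in fenbuconazole, imazalil and 2,4-D) became 2, 4 and 6 with dim probe sets left out, 3, 4 and 6 with trended robust moderation, and 2, 4 and 5 with no concentration term. With the DMSO columns added they were 1, 4 and 4. Leaving out 1 replicate number gave 0 to 1, 0 to 2 and 0 to 2, with 0 in every set without number 2, where only 0, 2 and 5 of all 54613 probe sets passed. BNIP3 and VEGFA crossed the threshold in 10 single settings, while no called difference changed sign. Over all probe sets, the 435, 1008 and 1575 called between numbers became 777, 1817 and 3015 with dim probe sets left out (of 27307 tested), 854, 1929 and 2970 with trended robust moderation, 530, 1437 and 2062 with no concentration term, 457, 1163 and 1982 with the DMSO columns added, and 298, 523 and 512 without number 1, and fell further without number 3. The cause was not tested. The 3 arrays of a concentration limit what can be seen to the intervals given, and 3 of the 21 member probe sets lay under the median level of their imazalil set.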
